A study of Mus musculus with 8 samples.

Results

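The small leucine-rich proteoglycans are secreted proteins with a core of leucine-rich repeats, most of which carry chondroitin, dermatan or keratan sulfate chains. They were described in 8 Agilent microarrays of whole lung from newborn mice of the C57Bl/6J background. The first group was labelled Fgf10 +/- (titled TG) and the other wild-type, with 4 arrays in each, and all pups breathed 85% oxygen between postnatal day 0 and day 3, and no room air group is analysed here. No source used here gives the kind of Fgf10 allele. The Fgf10 signal averaged 8.04 ± 0.20 on Fgf10+/- arrays and 7.81 ± 0.28 on wild-type ones (log2 scale, SD, n = 4 per group), so it does not check the labels and every direction below rests on them. Wild-type array 4 stood apart from the rest in Nppa and Wt1, which were named after their values were seen. Nppa, the atrial natriuretic peptide gene, read 4.55 to 6.25 in the 4 Fgf10+/- arrays, against 11.25 in wild-type array 4 and 4.63 to 4.86 in the other wild-type arrays. Of the other heart muscle markers, Myh6 and Tnnt2 were also highest in wild-type array 4, at 13.82 and 11.60. Actc1, Myl7 and Myl4 were not, at 12.47, 9.95 and 13.17 there, against 12.52, 9.99 and 13.50 in wild-type array 3. The mesothelial gene Wt1 read 3.08 to 5.13 in Fgf10+/- arrays, against 7.79 in wild-type array 4 and 4.22 to 6.22 in the other wild-type arrays. This array also had the lowest weight, 0.594, in limma's array weights.

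The family was represented by 8 genes, chosen by name from the platform's gene symbols: Bgn, Dcn, Aspn, Lum, Fmod, Prelp, Omd and Ogn, out of 20863 named genes. Where a gene had several features, the rule took the feature with the highest mean over all 8 arrays. Each of the 8 genes had 1 feature carrying its name, so that mean decided nothing here. All 8 passed the filter on dim features, a mean of at least 2.76 on the log2 scale, and were tested among 17234 genes. Omd lay only 0.07 and Prelp 0.17 above that level. Levels are log2 intensities, which are not compared between genes, and differences are log2 values of Fgf10+/- minus wild-type.

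Members of the family sit on collagen fibrils, set their spacing and thickness, and hold growth factors of the TGF-beta family in the matrix. By sequence they fall into classes. Biglycan, decorin and asporin form class I, lumican, fibromodulin, PRELP and osteomodulin belong to class II, and osteoglycin to class III. In lung they are made mainly by fibroblasts and smooth muscle of vessel walls, airways and alveolar septa. Pieces released from the matrix, biglycan above all, can act as danger signals on Toll-like receptors of macrophages.

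Biglycan (Bgn) fell in the lungs labelled Fgf10+/-, and it was the only member that passed the test. Decorin (Dcn) and fibromodulin (Fmod) had lower values in every Fgf10+/- array than in any wild-type array, without passing. Osteoglycin (Ogn) differed little. Of the 8 members 1 was called lower, 0 were called higher and 7 were not called at a limma adjusted p below 0.05. Over all 17234 genes 0.569% were called lower, 0.226% higher and 0.795% in either direction. At an unadjusted limma p below 0.05, 4 members were lower (Bgn, Dcn, Aspn and Fmod) and 0 higher, beside 5.79% of all genes lower. The median difference of the members was -0.47, beside 0.01 for all tested genes. A negative sign was seen in 7 members, against 48.7% of all genes. The count and the median include the dim genes Prelp and Omd, which each passed the filter through the group where they were higher. Prelp averaged 2.71 in Fgf10+/- arrays and Omd 2.75 in wild-type arrays, both below the filter level of 2.76. Since the family was chosen with earlier results of these arrays known, these counts and the median are a description.

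**Figure D1:**
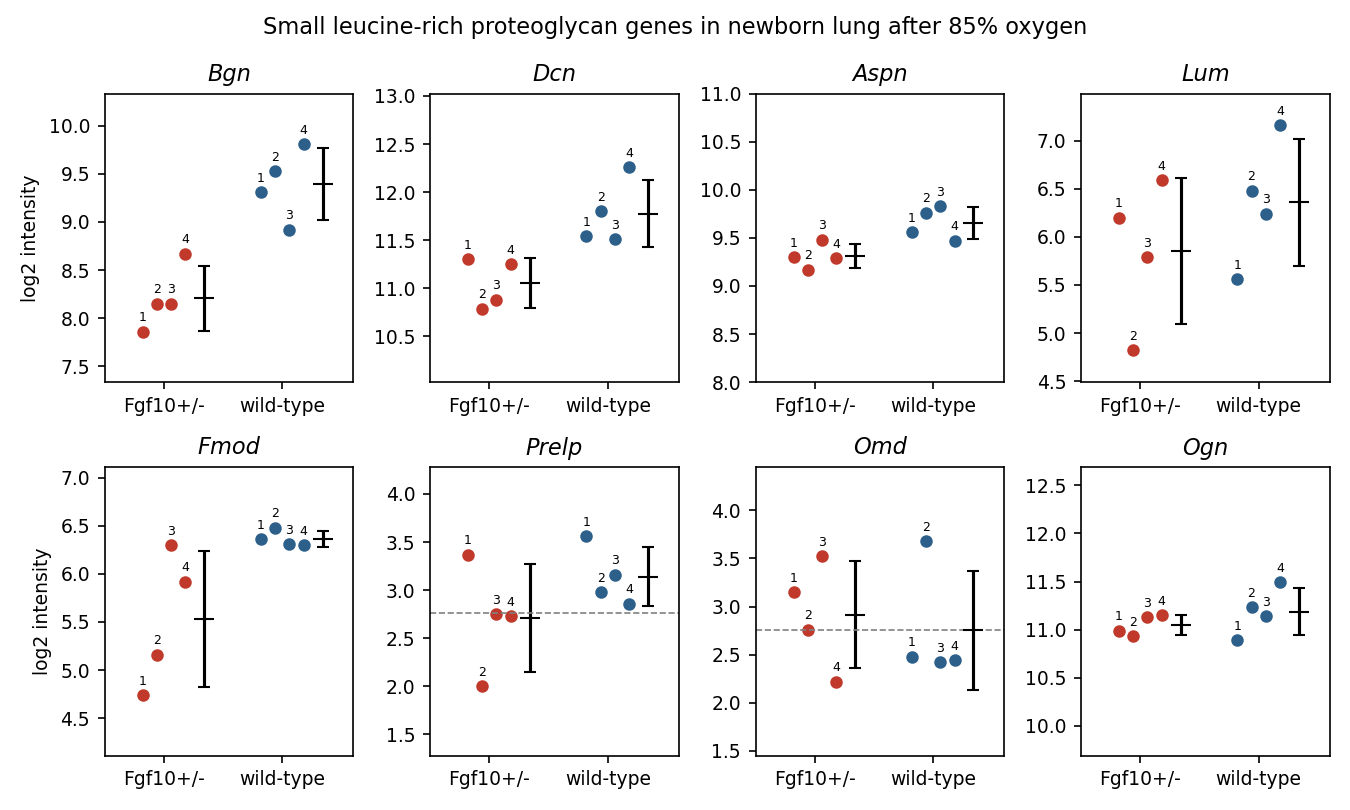
Log2 intensity of each member in each array, with Fgf10+/- arrays (red) on the left and wild-type arrays (blue) on the right of each panel. Numbers are replicate numbers, black marks are means with SD (n = 4), every panel spans 3 log2 units, and the dashed line in the panels of Prelp and Omd is the filter level of 2.76. The groups of Bgn and Dcn lie apart, those of Fmod barely, and those of the other 5 genes overlap.

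The largest difference was in class I. Biglycan carries chondroitin or dermatan sulfate chains, binds collagen and TGF-beta, and signals through Toll-like receptors when soluble. Bgn read 7.86, 8.15, 8.15 and 8.67 in arrays 1 to 4 labelled Fgf10+/-, against 9.31, 9.53, 8.92 and 9.81 in wild-type arrays 1 to 4. The highest Fgf10+/- array, 4, stayed 0.24 below the lowest wild-type array, 3. Bgn averaged 8.21 ± 0.34 in Fgf10+/- arrays and 9.39 ± 0.38 in the wild-type group (SD, n = 4 each), a log2 difference of -1.18 (SE 0.20, 95% CI -1.60 to -0.76, limma adjusted p = 0.014). Bgn was thus 2.27-fold lower in the lungs labelled Fgf10+/-, at 44.0% of the wild-type level. The call was lost without wild-type array 2 (limma adjusted p = 0.0644) and without the variance trend (adjusted p = 0.179), and its size stayed between -1.34 and -1.04 with any 1 array left out. The smallest of these, -1.04, came without wild-type array 4 (limma adjusted p = 0.0457).

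Bgn lies on chromosome X, and the labels do not give the sex of the pups. Xist, the RNA that coats the inactive X chromosome of females, read 6.56, 2.63, 1.93 and 6.73 in arrays 1 to 4 labelled Fgf10+/-, against 6.29, 6.85, 2.01 and 6.80 in wild-type arrays 1 to 4. High Xist values thus occurred in 2 Fgf10+/- and 3 wild-type arrays. In the arrays with low Xist, Bgn read 8.15 and 8.15 in Fgf10+/- lungs and 8.92 in the wild-type lung. With Xist as a covariate the difference was -1.10 and passed (limma adjusted p = 0.0281).

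Decorin carries a chain of the same kind, binds collagen fibrils and TGF-beta, and restrains growth factor receptors. Its gene read 11.30, 10.79, 10.88 and 11.25 in arrays 1 to 4 labelled Fgf10+/-, against 11.54, 11.80, 11.51 and 12.26 in wild-type arrays 1 to 4. The groups did not overlap, with a gap of 0.21, and wild-type array 4 was the highest of all. Dcn averaged 11.05 ± 0.26 in Fgf10+/- arrays and 11.78 ± 0.35 in the wild-type group (SD, n = 4 each), a log2 difference of -0.72 (SE 0.16, 95% CI -1.07 to -0.38). Its limma adjusted p of 0.0553 was just above the threshold. It passed with wild-type array 1 left out (limma adjusted p = 0.0298), with wild-type array 3 left out (adjusted p = 0.046) and with the stricter filter at the 50th percentile (adjusted p = 0.0488), where fewer genes were tested. With a block for the replicate number it also passed (limma adjusted p = 0.0319). Without wild-type array 4 the difference was -0.56 (limma adjusted p = 0.0991).

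Asporin differs from its class by a stretch of aspartate residues and is a marker of alveolar myofibroblasts in newborn mouse lung. Aspn read 9.30, 9.17, 9.48 and 9.29 in arrays 1 to 4 labelled Fgf10+/-, against 9.56, 9.76, 9.83 and 9.47 in wild-type arrays 1 to 4. Only Fgf10+/- array 3 reached the lowest wild-type array, 4, and it exceeded it by less than 0.01. Its spread was small in both groups (SD 0.12 in Fgf10+/- and 0.17 in wild-type arrays), and the difference of -0.34 did not pass (95% CI -0.58 to -0.10, limma adjusted p = 0.225).

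Class II members varied more between arrays. Fibromodulin binds collagen and directs lysyl oxidase, which cross-links it. Fmod read 4.74, 5.16, 6.30 and 5.92 in arrays 1 to 4 labelled Fgf10+/-, against 6.36, 6.48, 6.31 and 6.30 in wild-type arrays 1 to 4. The wild-type arrays lay close together (SD 0.08) and the Fgf10+/- arrays were spread widely (SD 0.71), with arrays 1 and 2 the lowest. The groups were apart by only 0.0019, between Fgf10+/- array 3 and wild-type array 4. The difference of -0.83 did not pass (SE 0.30, 95% CI -1.48 to -0.18, limma adjusted p = 0.301) and was -0.57 without Fgf10+/- array 1.

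Lumican, a keratan sulfate proteoglycan first known from the cornea, regulates collagen fibril thickness. Lum read 6.20, 4.82, 5.79 and 6.59 in arrays 1 to 4 labelled Fgf10+/-, against 5.56, 6.48, 6.24 and 7.16 in wild-type arrays 1 to 4. The groups overlapped widely, with Fgf10+/- array 2 lowest and wild-type array 4 highest. The difference of -0.51 did not pass (95% CI -1.33 to 0.31, limma adjusted p = 0.672), and it was -0.17 without Fgf10+/- array 2 and -0.24 without wild-type array 4.

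The remaining members of class II were dim. PRELP is a heparin-binding protein that anchors basement membranes to collagen, and osteomodulin is best known from bone. Prelp read 3.37, 2.00, 2.75 and 2.73 in arrays 1 to 4 labelled Fgf10+/-, against 3.56, 2.98, 3.16 and 2.86 in wild-type arrays 1 to 4. In 3 Fgf10+/- arrays and 0 wild-type arrays Prelp was below the filter level. Omd read 3.15, 2.76, 3.52 and 2.22 in arrays 1 to 4 labelled Fgf10+/-, against 2.48, 3.68, 2.42 and 2.44 in wild-type arrays 1 to 4, and 2 Fgf10+/- and 3 wild-type arrays were below that level. No detection call says whether such dim values exceed background. The differences were -0.43 for Prelp (95% CI -1.27 to 0.41, limma adjusted p = 0.751) and 0.16 for Omd (95% CI -0.77 to 1.09, limma adjusted p = 0.928). Without Fgf10+/- array 2 the difference of Prelp was -0.19, and without Fgf10+/- array 3 that of Omd was -0.043.

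Osteoglycin, also called mimecan, is the class III member and another regulator of collagen fibrils. Ogn read 10.99, 10.93, 11.13 and 11.15 in arrays 1 to 4 labelled Fgf10+/-, against 10.89, 11.23, 11.14 and 11.49 in wild-type arrays 1 to 4. The groups overlapped, and wild-type array 1 was the lowest of all. The difference of -0.14 did not pass (SE 0.11, 95% CI -0.38 to 0.10, limma adjusted p = 0.71), and it was -0.039 without wild-type array 4. The interval of Ogn does not reach that of Bgn, whose upper bound was -0.76, though the members were not tested against each other.

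**Figure D2:**
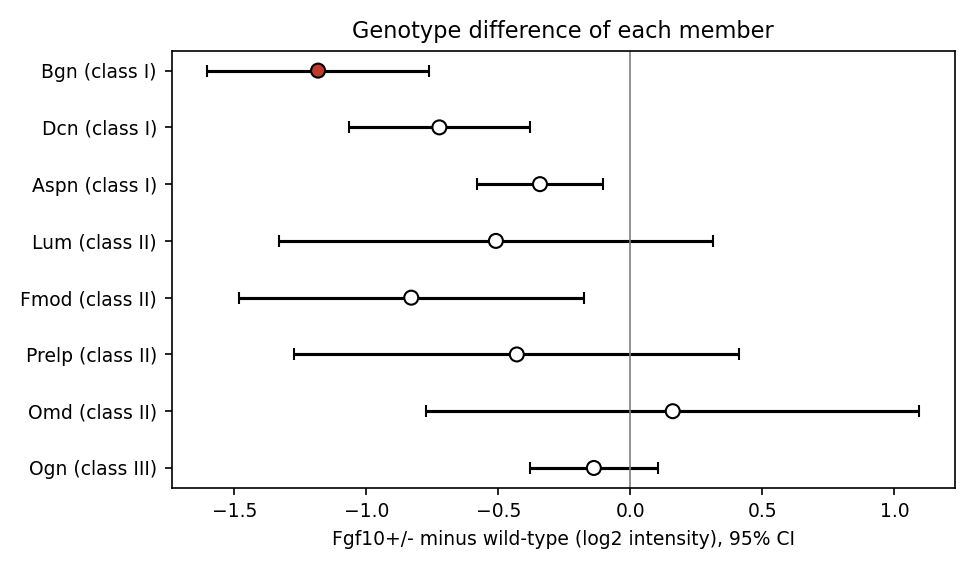
Difference in log2 intensity of each member, Fgf10+/- minus wild-type, with 95% confidence intervals from limma (n = 4 arrays each). The filled point is Bgn, the called member, at -1.18. The intervals of Bgn, Dcn, Aspn and Fmod lie below 0 and those of Lum, Prelp, Omd and Ogn span it.

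Exact permutation of the 4 against 4 arrays gave the smallest p it can, 0.0286 (two-sided), for Bgn, Dcn and Fmod, whose groups did not overlap. Over all genes 3.51% had groups that did not overlap in this direction, and 3.13% in the opposite one. The exact permutation p was 0.0571 for Aspn and lay between 0.229 and 0.743 for the other 4 members.

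The RefSeq table held promoters of 6 members, Dcn and Lum not among them. The 250 bases before the start are shown for Bgn, the called member, and for Ogn, whose interval was narrow around a small difference. They lie at chrX:73483351-73483600 and chr13:49607765-49608014 (GRCm38.p6, + strand for both). Capitals mark matches on either strand to the core promoter element TATAAA, the SP factor box GGGCGG, the SMAD box CAGAC, the AP-1 site TGANTCA or the E-box CANNTG.
Bgn promoter: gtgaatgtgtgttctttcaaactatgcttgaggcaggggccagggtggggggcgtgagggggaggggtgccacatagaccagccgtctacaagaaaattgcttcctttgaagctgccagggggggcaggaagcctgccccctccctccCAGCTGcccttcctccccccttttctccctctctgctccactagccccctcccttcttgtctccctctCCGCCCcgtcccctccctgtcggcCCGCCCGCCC
Ogn promoter: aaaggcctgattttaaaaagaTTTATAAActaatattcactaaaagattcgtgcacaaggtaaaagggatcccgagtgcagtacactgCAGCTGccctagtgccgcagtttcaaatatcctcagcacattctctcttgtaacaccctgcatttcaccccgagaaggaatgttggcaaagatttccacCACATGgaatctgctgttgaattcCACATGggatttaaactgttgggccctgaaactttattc
The Bgn window held 3 SP factor boxes, of which 2 overlap at its end, and 1 E-box. The Ogn window held 2 matches to the core element, which overlap on opposite strands, and 3 E-boxes. Of all 32851 such windows, 32.7% held the SP factor box, 12.4% the core element, 66.2% an E-box, 42.2% the SMAD box and 6.75% the AP-1 site. The Bgn window had 64.4% G and C and the Ogn window 42.0%, against a median of 52.4% over all windows. Aspn was the other member with the core element (2 matches), while Fmod held 2 and Prelp 1 SMAD box. These matches are descriptions of letters, not sites.

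Most members sit beside each other in the genome. Dcn and Lum are neighbours on chromosome 10, Prelp and Fmod on chromosome 1, and Aspn, Omd and Ogn follow each other on chromosome 13, which also carries Fgf10. Ecm2, a leucine-rich repeat gene next to Aspn, had a value of -0.61 (95% CI -1.20 to -0.02, limma adjusted p = 0.426). On the far side of Ogn, the nucleolar gene Nol8 had 0.37 (limma adjusted p = 0.663). Kera, which encodes keratocan and follows Lum, had 0.22 (limma adjusted p = 0.879), although it was -0.14 without Fgf10+/- array 3. Optc, which encodes the eye proteoglycan opticin and precedes Prelp, had 1.12 (95% CI 0.29 to 1.95, limma adjusted p = 0.263). Optc averaged 3.68 in Fgf10+/- arrays and 2.56, below the filter level, in wild-type arrays. The genes that flank Bgn, Haus7 and Atp2b3, had 0.26 and -0.40, and Btg2 beside Fmod had 0.24, none of them called.

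The mean deviation of the 8 genes from their own means was -0.21, -0.61, -0.08 and -0.10 in arrays 1 to 4 labelled Fgf10+/-, against 0.08, 0.41, 0.11 and 0.39 in wild-type arrays 1 to 4. Fgf10+/- array 2 held the lowest value of 4 members, and wild-type array 4 held the highest value of 4. The mean deviation was thus negative in all 4 Fgf10+/- arrays and positive in all 4 wild-type arrays. This is a description, since the members were chosen with earlier results known and the mean includes Bgn and the dim Prelp and Omd. In Fgf10+/- array 3 the members differed in sign, with -0.65 for Bgn and -0.53 for Dcn but 0.35 for Fmod and 0.69 for Omd. The median difference of the members was -0.24 without Fgf10+/- array 2 and -0.46 without wild-type array 4.

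**Figure D3:**
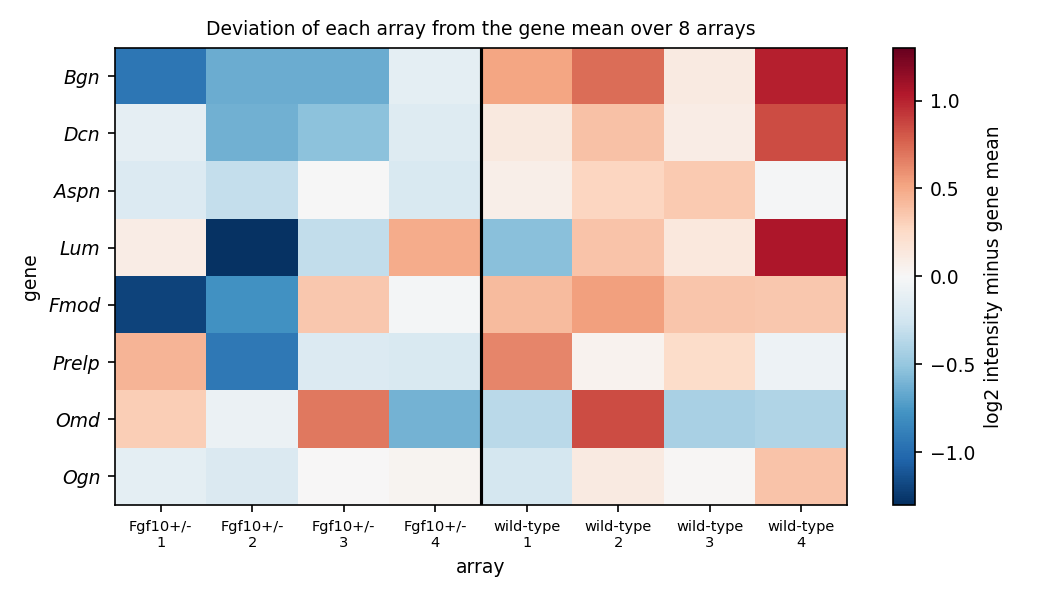
Log2 intensity of each member minus its mean over the 8 arrays, with the 4 Fgf10+/- arrays left of the black line and the 4 wild-type arrays right of it. Bgn and Dcn are below their mean in every Fgf10+/- array and above it in every wild-type array. Each of the other members changes sign within a group, Aspn only through wild-type array 4 at -0.011.

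Correlations over the 8 arrays were computed for all 28 pairs of members, and none passed after adjustment. Pearson's r was positive in 21 pairs and negative in 7, with a median of 0.41, and 6 pairs had an unadjusted exact permutation p below 0.05. These totals include the pairs with Bgn, Dcn or Fmod, so the difference between the groups enters them. Of the 6 pairs, only that of Lum and Ogn holds none of Bgn, Dcn and Fmod. The smallest adjusted exact permutation p was 0.106 for Pearson's r and 0.0625 for Spearman's rho. For pairs that include Bgn, Dcn or Fmod no pooled r over the 8 arrays is given, because their groups lie apart. Among neighbours, Aspn and Omd had r = 0.17 (exact permutation p = 0.68, adjusted p = 0.828) and rho = 0.14 (exact permutation p = 0.752, adjusted p = 0.877), with r = 0.51 without the 2 arrays farthest from the median of Aspn. Omd and Ogn had r = -0.02 (exact permutation p = 0.962, adjusted p = 0.962) and rho = -0.14 (exact permutation p = 0.752, adjusted p = 0.877), with r = -0.42 without the 2 arrays farthest from the median of Omd. Lum and Ogn, a pair chosen after its values were seen, had r = 0.85 (exact permutation p = 0.0108, adjusted p = 0.152) and rho = 0.93 (exact permutation p = 0.00223, adjusted p = 0.0625), with r = 0.72 without the 2 arrays farthest from the median of Lum. As a description, deviations from group means over the 8 arrays had r = 0.86 for the neighbours Dcn and Lum and -0.16 for Fmod and Prelp. Fgf10+/- array 2 and wild-type array 4 were the farthest from the median of Dcn. Without them the pooled r of Dcn and Lum was 0.28, and the r of deviations was not recomputed.

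Pearson's r over the 8 arrays, given as a description, includes any difference between the groups. By this r the genes whose pattern was most like that of each member were found among 17233 others. For Bgn they were Ankfy1, Rftn1 and Lrpap1 (r 0.968 to 0.984), and for Dcn D430041D05Rik, the basement membrane gene Nid1 and Ppfia4 (r 0.972 to 0.979). Those of Aspn were Rtl8a, Tgm4 and Aunip (r 0.955 to 0.961), and those of Lum were Mark4, Zfp30 and Notch4 (r 0.975 to 0.982). Fmod was closest to B4galt6, Pusl1 and Psmb7 (r 0.960 to 0.968), and Prelp to Fli1, Spty2d1 and Disp2 (r 0.928 to 0.960). Nearest to Omd were Tm4sf20, 2310061I04Rik and Aqp6 (r 0.956 to 0.987). For Ogn they were Cst9, Net1 and the collagen gene Col6a1 (r 0.970 to 0.974). Each of these 24 genes was found for 1 member only, and the smallest limma adjusted p among them was 0.0516, that of Rftn1.

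Genes that act on the same proteins were read from lists chosen with results of these arrays known. Of the rest of the leucine-rich proteoglycan family 9 of 10 genes were tested and 0 were called by limma (median -0.01), with 2 lower and 1 higher at an unadjusted p below 0.05. Podn, which encodes podocan, had 9.15, 7.27, 7.35 and 7.45 in arrays 1 to 4 labelled Fgf10+/-, against 8.67, 8.86, 7.91 and 10.05 in wild-type arrays 1 to 4. Its groups overlapped through Fgf10+/- array 1, and its difference was -1.07 (95% CI -2.01 to -0.13, limma adjusted p = 0.362).

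Enzymes that build the sugar chains did not pass. None of 20 tested genes of chondroitin and dermatan sulfate synthesis was called by limma (median -0.08), and 1 was lower at an unadjusted p below 0.05. Chst3, a chondroitin sulfotransferase, had -0.45 (limma adjusted p = 0.321) and Csgalnact1, which starts the chondroitin chain, -0.26 (adjusted p = 0.448). Likewise 0 of 8 keratan sulfate genes were called by limma, adjusted or not (median -0.08), with the sulfotransferases Chst4 at -0.99 (limma adjusted p = 0.539) and Chst2 at -0.36 (adjusted p = 0.555).

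Proteases held the called genes nearest to the family. Among 10 tested proteases and enhancers of propeptides and core proteins 2 were called lower and 8 were not (median -0.14). Mmp2, the gelatinase A gene, read 10.61, 10.51, 10.40 and 10.70 in arrays 1 to 4 labelled Fgf10+/-, against 11.21, 11.32, 11.10 and 11.45 in wild-type arrays 1 to 4. Its groups lay clearly apart, and it fell by 0.71 on the log2 scale (SE 0.10, limma adjusted p = 0.00568), with a call in each of 8 runs that left out 1 array. Adamts4, an aggrecanase that also cleaves biglycan, read 7.39, 7.28, 7.21 and 7.56 in arrays 1 to 4 labelled Fgf10+/-, against 8.09, 8.19, 8.17 and 8.56 in wild-type arrays 1 to 4. It fell by 0.90 on the log2 scale (SE 0.15, limma adjusted p = 0.0146) and lost its call without Fgf10+/- array 3 (limma adjusted p = 0.0514) or wild-type array 2 (adjusted p = 0.0618). Another feature of Adamts4, with a larger SD, differed by -1.21 and did not pass (limma adjusted p = 0.161). Neither gene was called without the variance trend (limma adjusted p = 0.15 for Mmp2 and 0.13 for Adamts4).

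Collagens, growth factors and receptors that bind these proteins did not pass. Of 11 tested collagens of the fibril 0 were called by limma and 10 had a negative sign (median -0.23). The 2 lower at an unadjusted p below 0.05 were Col14a1 at -0.38 and Col12a1 at -0.53, both collagens that decorate fibrils. Other processing with all arrays kept gave Col14a1 between -0.39 and -0.10. Of 12 TGF-beta and BMP ligands and receptors 0 were called by limma (median -0.11), with 3 lower and 3 higher at an unadjusted p below 0.05. The ligand Bmp4 had -0.46 (limma adjusted p = 0.11) and Tgfb2 -0.38 (adjusted p = 0.157). None of 14 receptors of soluble decorin and biglycan was called by limma (median 0.00), and 1 was lower at an unadjusted p below 0.05. That was the decorin-clearing receptor Lrp1 at -0.36 (limma adjusted p = 0.104). Other processing with all arrays kept gave Lrp1 between -0.36 and -0.14. The ATP receptor P2rx7 had -0.25 (limma adjusted p = 0.491) and 0.27 by another of its features. Proteoglycans outside the family had 1 of 19 tested genes called lower (median -0.10). There 3 were lower and 1 higher at an unadjusted p below 0.05. The higher gene was Sdc1 at 0.47 (limma adjusted p = 0.117). The called gene was Srgn, which encodes serglycin of blood and endothelial cells, at -0.40 (SE 0.08, limma adjusted p = 0.0299). Among the 8 runs that left out 1 array, Srgn was called only without Fgf10+/- array 4 or wild-type array 4.

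**Figure D4:**
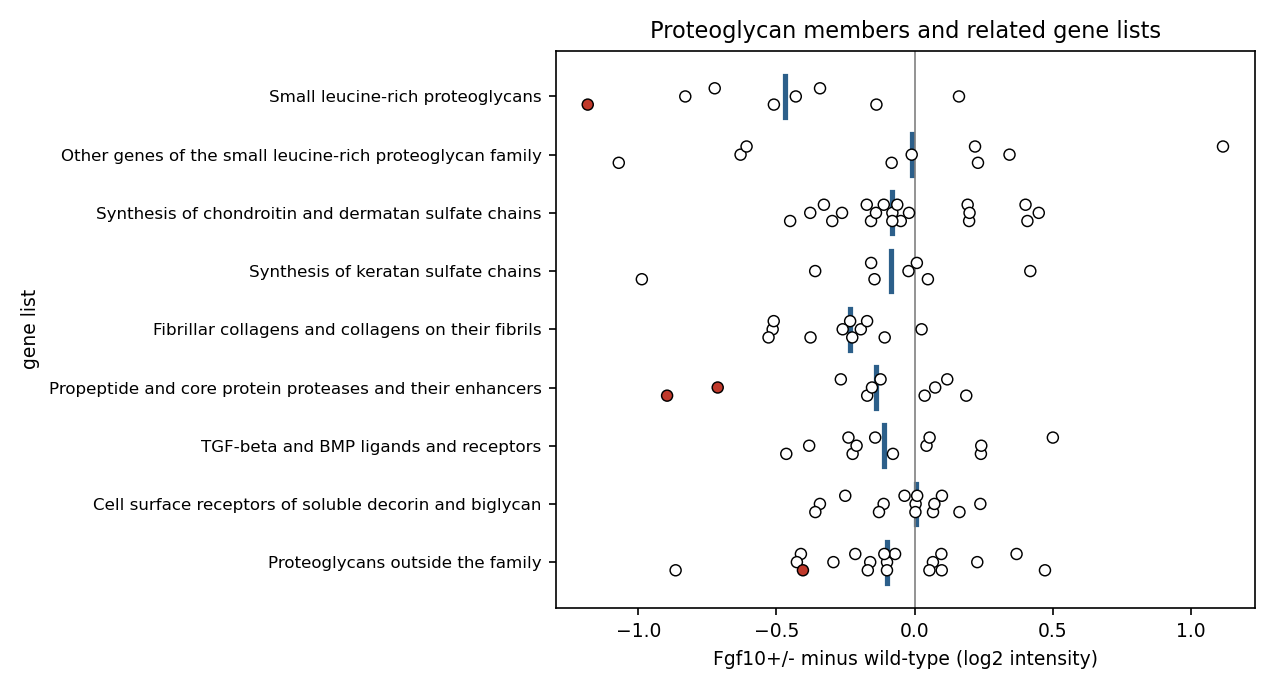
Difference in log2 intensity, Fgf10+/- minus wild-type, of each tested gene of the 8 members and of 8 related gene lists. Filled points passed limma's test, bars are medians, and vertical offsets only separate points. The filled points are Bgn, Mmp2, Adamts4 and Srgn, all below 0.

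Whole lung holds many cell types, and fewer cells of a type cannot be told apart from less RNA per cell. Lung epithelial markers were bright. Sftpc of surfactant and the club cell gene Scgb1a1 averaged 15.99 and 15.96 in Fgf10+/- arrays, against 15.99 and 15.96 in wild-type arrays, but these values lie at or next to the top of the scale (15.99 on every array), so they identify lung and cannot compare the groups. Of the 8 epithelial markers 1 was called, higher, and 7 were not (median 0.05). It was Lamp3, a lamellar body gene of alveolar type II cells, at 0.51 (limma adjusted p = 0.0211), and its call was lost without Fgf10+/- array 1, 2 or 3 or wild-type array 4, with limma adjusted p up to 0.0863. Markers of adventitial fibroblasts, which surround vessels and airways, had a summed linear intensity of 29620 to 31310 in Fgf10+/- arrays and 32790 to 36930 in wild-type arrays, without overlap. Without Gsn, the brightest, the sums overlapped, at 15750 to 17740 in Fgf10+/- arrays and 16990 to 21680 in wild-type arrays. Of these 10 markers 1 was called lower (Ly6a, at -0.64, limma adjusted p = 0.0112, and 0.0515 without wild-type array 2), 9 were not, and 7 had a negative sign (median -0.14). At an unadjusted p below 0.05, 2 were lower and 2 higher. Those higher were Dpp4 at 0.58 (limma adjusted p = 0.0731) and Clec3b at 0.71 (adjusted p = 0.397). The brightest, Gsn and Cd34, had means of 13.76 and 13.38 in Fgf10+/- arrays and 13.92 and 13.57 in wild-type arrays.

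Markers of other cell types were read in the same way. Mesothelial markers summed to 7385 to 12660 in Fgf10+/- arrays and 12020 to 25840 in wild-type arrays, with all 7 negative in sign, 0 called by limma and 1 lower at an unadjusted p below 0.05 (median -0.70). Without wild-type array 4, at 25840, the other wild-type arrays summed to 12020 to 14640. These sums were nearly all Msln. Without Msln they were 188.4 to 449.5 in Fgf10+/- arrays and 198.2 to 1630 in wild-type arrays, array 4 included. Heart muscle markers summed to 23460 to 29440 in Fgf10+/- arrays and 16960 to 35840 in wild-type arrays, with wild-type array 4 the highest and 0 of 6 called by limma, adjusted or not (median -0.09). Endothelial sums were 21370 to 27650 in Fgf10+/- arrays and 19180 to 26310 in wild-type arrays, with 0 of 7 called by limma, adjusted or not (median -0.04). Smooth muscle sums were 39280 to 45180 in Fgf10+/- arrays and 42350 to 57510 in wild-type arrays, with 0 of 8 called by limma and 4 lower at an unadjusted p below 0.05 (median -0.27). Of these 8 markers 7 had a negative sign. Without Tagln, the brightest, the sums were 22810 to 25670 in Fgf10+/- arrays and 26160 to 35620 in wild-type arrays, without overlap. Alveolar fibroblast sums were 25470 to 29620 in Fgf10+/- arrays and 28890 to 32400 in wild-type arrays, with 0 of 10 called by limma, 1 higher at an unadjusted p below 0.05 and a median of 0.04. Myofibroblast sums were 26330 to 30150 in Fgf10+/- arrays and 22780 to 30650 in wild-type arrays, with 1 of 8 called, higher (Enpp2, at 0.55, limma adjusted p = 0.0192), and a median of 0.13. At an unadjusted p below 0.05, 2 were lower, P2ry14 at -0.38 (limma adjusted p = 0.262) and Mustn1 at -0.46 (adjusted p = 0.404). The call of Enpp2 was lost without Fgf10+/- array 1 or 2 or wild-type array 2 or 4, with limma adjusted p up to 0.0749. In the tendon and bone list Scx, a tendon transcription factor, was the 1 of 7 called, at -0.52 (limma adjusted p = 0.0207). Its call was kept only without Fgf10+/- array 2 or wild-type array 1 or 3 among the runs that left out 1 array. The list summed to 1212 to 1404 in Fgf10+/- arrays and 1632 to 1941 in wild-type arrays, which was nearly all Scx. Without Scx it summed to 110.2 to 131.9 in Fgf10+/- arrays and 73.8 to 113.1 in wild-type arrays. Of the 7 tendon and bone markers 5 had a positive sign (median 0.35), and Bglap, the osteocalcin gene, was higher at an unadjusted p below 0.05 (0.88, limma adjusted p = 0.437). Cartilage sums were low in both groups, 295.1 to 437.6 in Fgf10+/- and 283.1 to 427.9 in wild-type arrays. Of the 14 cartilage markers 5 were not among the tested genes, Acan and Matn1 among them, and 0 of 9 were called by limma, with 1 higher at an unadjusted p below 0.05. Macrophage sums were 7557 to 7797 in Fgf10+/- arrays and 7804 to 9819 in wild-type arrays, with 0 of 8 called by limma and 4 lower at an unadjusted p below 0.05 (median -0.59). Of these 8 markers 7 had a negative sign. Without Csf1r, the brightest, the sums overlapped, at 3270 to 3796 in Fgf10+/- arrays and 3513 to 4657 in wild-type arrays. The part of these markers in the values of Bgn and Dcn was not tested.

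**Figure D5:**
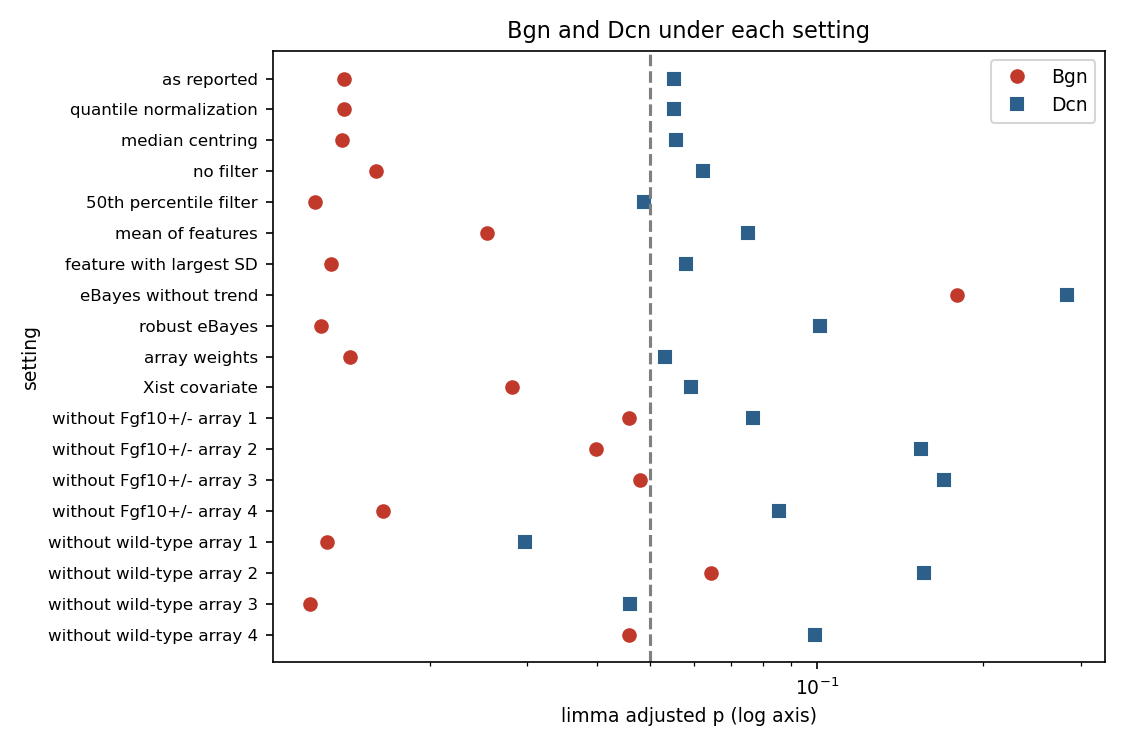
Limma adjusted p (log axis) of Bgn (circles) and Dcn (squares) as reported and under 18 alternatives. The dashed line is the threshold of 0.05. Bgn lies left of it except without the variance trend and without wild-type array 2, and Dcn lies right of it except with the 50th percentile filter and without wild-type array 1 or 3. The replicate block is not plotted, and under it both genes passed (limma adjusted p = 0.0104 for Bgn and 0.0319 for Dcn).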

How the data were processed

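Total RNA of whole lung was amplified with Agilent's low-input kit and labelled with Cy3, per the labels' protocols. The authors deposited log2 intensities of 62976 features on 8 arrays, and limma is named in the submitters' processing notes without a version. The 8 columns had nearly identical quantiles, so no further normalization was applied. No source used here gives the background correction or detection calls. The 189 features with a missing value were left out.

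The platform annotation named 31465 features, of which 29050 were matched by accession to RefSeq genes of GRCm38.p6 for current symbols. Features with a mean below the 30th percentile were removed, and the feature with the highest mean stood for each gene. The test was limma 3.58.1 in R 4.3.3 (lmFit, eBayes with a variance trend, two-sided), with Benjamini-Hochberg adjustment over 17234 genes. The fit was tested on simulated data. The members and lists were chosen with earlier results of these data known. The genes named were the members, their neighbours in the genome, the 3 most alike by r, and from each related list the called genes or else the 2 with the smallest p. From marker lists the called genes and, of the 2 brightest per list that the rule also gave, some are named. Nppa, Wt1, Dpp4, Clec3b, P2ry14, Mustn1 and Bglap were named after their values were seen. The design text calls the samples independent, and litters are not named, so a p-value covers the spread among these 4 against 4 samples, which may in part be technical. Alternatives were other normalizations, filters, features and variance models, array weights, Xist as a covariate, a replicate block and leaving out each array.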

Additional observations from a re-analysis of the deposited data

Results flagged for a closer look

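Osteomodulin (Omd) had an array far from the rest of its group. In wild-type arrays it read 3.68 in array 2 and between 2.42 and 2.48 in the other 3, and the gap to the nearest array was 0.949 of the group's range, above Dixon's 95% critical value for 4 samples. Chance gives a gap above that critical value in about 1 in 20 groups, and 16 groups (8 genes in 2 genotypes) were examined. Omd lay near the filter level, where whether values are above background is unknown.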

How the results depend on the processing

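The count of members called lower was 1 as reported. It was 2 with the 50th percentile filter, where Prelp and Omd drop out, 2 with the replicate block and 0 without the variance trend, and it was 1 under the other 8 alternatives that kept all arrays. With 1 array left out it ranged from 0 to 2. The median difference of the members ranged from -0.60 to -0.24 with 1 array left out. No member was called higher under any of the 19 alternatives or as reported, where 0 were higher at an unadjusted limma p below 0.05 as well. With 1 array left out the difference ranged from -0.043 to 0.47 for Omd and from -0.14 to 0.47 for Kera, each negative only without Fgf10+/- array 3. The sign was reversed for P2rx7 (0.27) with the feature of largest SD. Over all genes 137 were called as reported, 1 without the variance trend, 80 with Xist as a covariate and 34 to 173 with 1 array left out. The design text calls the samples independent. Deviations of same-numbered arrays correlated at -0.0044, -0.06, 0.03 and 0.07 over all tested genes, which cannot exclude that the numbers pair the samples. Under the replicate block 116 genes were called, with Bgn and Dcn among them (limma adjusted p = 0.0104 and 0.0319) and Srgn not. The cause of these changes was not tested. With 4 arrays a group, the dim members Prelp and Omd had 95% intervals of -1.27 to 0.41 and -0.77 to 1.09.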
